A study of Sus scrofa with 21 samples.

Results

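The genes described here encode protein kinase A (PKA) subunits, the A-kinase anchoring proteins that hold the kinase in the sperm tail, and other fibrous sheath proteins that carry the same docking fold. The set was fixed by name. It lists 10 genes of 25880 in the count files, and 8 of them were matched to an identifier, namely PRKACA, PRKAR1A, PRKAR2A, AKAP3, AKAP4, ROPN1L, CABYR and SPA17. AKAP14 and ROPN1 were not analysed here. Levels are given for testis tissue of 21 artificial insemination boars, with 1 RNA library per boar, of which 13 were Landrace (L) and 8 were Duroc (D), and the labels name no treatment, age or genotype beyond breed. Boars had been chosen by the hyperactivity of their ejaculated sperm, so the groups describe sperm and the counts describe the tissue that made them. Contrast (i) compared 4 Landrace boars with high (L5, L6, L7, L8) and 4 with low (L1, L2, L3, L4) hyperactivity on the day of collection, day 0. Contrast (iii) compared 3 Landrace boars with a high (L7, L13, L15) and 4 with a low (L2, L9, L10, L12) change of hyperactivity from day 0 to day 4, after 96 h of liquid storage. L2 and L7 are in both contrasts. Contrast (ii) compared 5 Duroc boars labelled High (D1, D2, D3, D4, D5) with 3 labelled Low (D6, D7, D9) on day 0. The study's own listing by boar name gives the other group for 7 of these 8, all but D5, so the Duroc groups are named as labelled. For the Landrace boars of contrast (i) the labels and that listing give the same groups. The signs of change in the study's text would follow, however, if high and low were exchanged. The mean counts per group that the study prints for DNLZ and PRM1 are lower in the high boars, which is the labelled direction here. Every Landrace direction below follows the labels, and the signs in the study's text remain unexplained. A 4th comparison set the 8 Duroc against the 13 Landrace boars.

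Hyperactivation is a vigorous, asymmetric beat of the sperm tail that a sperm needs to reach and penetrate the egg. It depends on cyclic AMP, which frees the catalytic subunits of PKA from their regulatory subunits, and on calcium. Anchoring proteins bind the regulatory subunits and so place the kinase along the tail. Much of it sits in the fibrous sheath, a scaffold of longitudinal columns and ribs around the axoneme of the principal piece that also holds glycolytic enzymes. Messenger RNAs of sheath proteins are made in spermatids, before the sperm nucleus is silenced, and whole testis therefore reports them together with the RNA of every other testis cell. In such tissue, fewer cells of a type and less RNA per cell cannot be told apart.

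All 8 matched genes were counted in every library and passed the filter on low counts in every comparison. Together they took 0.458% to 0.696% of the gene counts in Landrace and 0.549% to 0.678% in Duroc. Libraries held 47988011 to 97059970 gene counts in Landrace and 41358671 to 125576407 in Duroc, so sampling error was small beside the spread between boars for these genes. Levels are CPM, the counts of a gene scaled to a common library size, after TMM scaling over all 21 libraries. They are not divided by transcript length, so they were compared between boars and never between genes. Most defining markers of the testis cell types were present. The round spermatid list summed to 4638 to 10080 CPM over the 21 libraries and the Leydig list to 456.5 to 4451 CPM. The Sertoli marker AMH and the spermatogonia marker NANOS2 had no counts in any library, and CSF1R lacked counts in at least 1. L13 stood apart. Its Sertoli marker sum was 519 CPM, beside 191.5 to 338 CPM in the other libraries, and its sum over outer dense fibre and tektin genes was the lowest, at 2121 CPM beside 3301 CPM for the next. L8, a high boar of contrast (i), stood apart too. It had the highest round spermatid sum, at 10080 CPM beside 7897 CPM for the next. Its Leydig, peritubular, endothelial and macrophage sums were the lowest.

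None of the 8 genes passed the adjusted threshold of 0.05 with edgeR's quasi-likelihood test in any of the 4 comparisons. In contrast (i) this was 0 of 8, in a comparison where 20.7% of all 12979 genes tested passed (626 higher and 2056 lower in the high group). At an unadjusted p under 0.05 the count was 4 of 8, beside 5415 of the 12979 genes tested. The likelihood ratio test and DESeq2 called 1 of 8 each, SPA17, beside 3427 and 3922 of the 12979 genes. In contrast (iii), 0 of 8 passed and 0% of 12824 genes did, with 0 of 8 but 2540 genes under an unadjusted 0.05. The likelihood ratio test called 64 genes and DESeq2 called 123 there, and neither called a gene of the set. In contrast (ii), 0 of 8 passed and 0% of 13043 genes did, with 158 genes under an unadjusted 0.05 and 0 called by the other tools. Between breeds, 0 of 8 passed and 2.77% of 12835 genes did. A p above the threshold does not show that levels were equal, and the intervals below give the sizes that remain possible.

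**Figure D1:**
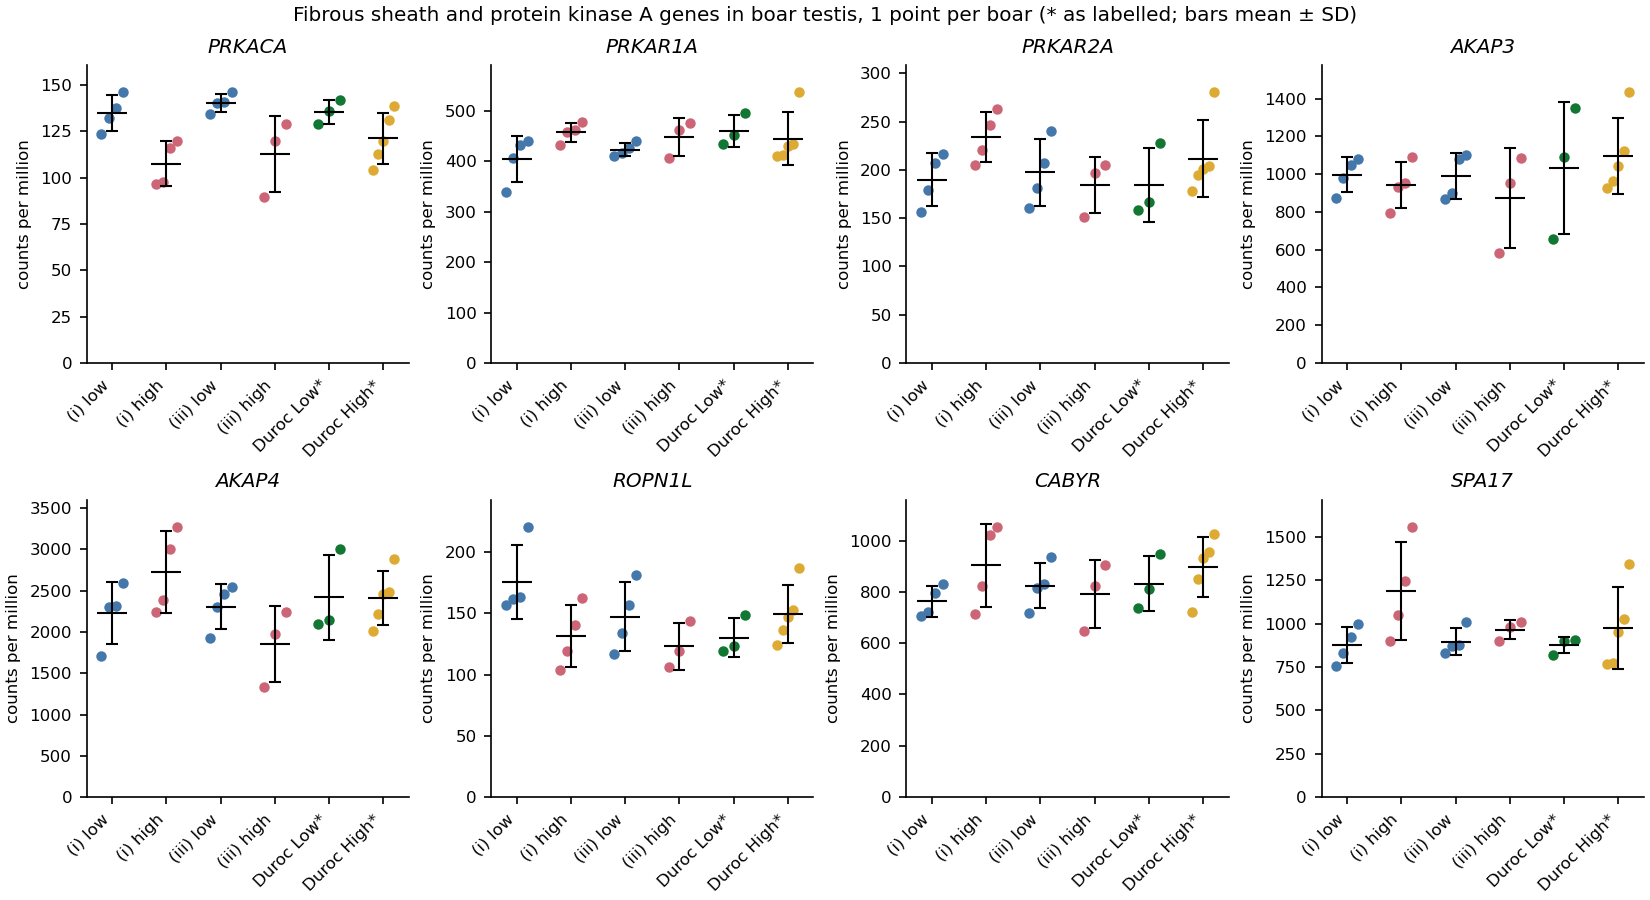
Levels of the 8 genes in CPM (vertical axes, from 0), with 1 point per boar, for the low and high groups of contrasts (i) and (iii) and the Duroc boars as labelled. Horizontal marks and bars are mean ± SD, L2 and L7 appear in both Landrace contrasts, and PRKACA is the gene whose high and low boars do not overlap in either Landrace contrast.

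PRKACA encodes the catalytic subunit that sperm use, transcribed in germ cells from its own first exon, which counts over the whole gene cannot separate from the general form. It is ENSSSCG00000013771, at chr2:65074876-65095564 in the RefSeq annotation of Sscrofa11.1. In contrast (i) the low boars had 132, 146, 138 and 123 CPM (L1 to L4) and the high boars 116, 96.4, 120 and 97.5 CPM (L5 to L8). Every high boar was below every low boar. Non-overlap by itself was common in contrast (i), where it held for 28.1% of all genes tested. The means were 107.5 ± 12.3 (SD, n = 4) and 134.8 ± 9.6 CPM (SD, n = 4). High over low, the log2 fold change was -0.31 (SE 0.13, 95% interval -0.59 to -0.02), with an adjusted p of 0.102 by the quasi-likelihood test. A two-sided exact permutation test of the mean log2 CPM gave an unadjusted p = 0.0286, the smallest that 70 assignments allow. Any gene without overlap between 4 and 4 boars gives this p, so it adds nothing to the non-overlap.

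In contrast (iii) PRKACA again stood lower in the high boars without overlap, at 120, 89.7 and 129 CPM (L7, L13, L15) beside 146, 140, 141 and 134 CPM (L2, L9, L10, L12). Such non-overlap held for 16.2% of genes tested. The log2 fold change was -0.31 (SE 0.15, interval -0.64 to 0.02, adjusted p 0.268), and the unadjusted exact permutation p was 0.0286, the smallest of 35 assignments. The contrasts share L2 and L7, so these are not independent results. Among Duroc boars the levels of 120, 104, 113, 131 and 138 CPM (D1 to D5) overlapped with 142, 129 and 136 CPM (D6, D7, D9), with a log2 fold change of -0.16 (interval -0.48 to 0.15), labelled High over labelled Low. Duroc and Landrace means were 126.7 ± 13.3 (SD, n = 8) and 123.3 ± 18.6 CPM (SD, n = 13).

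The regulatory subunits keep the catalytic subunit inactive until cyclic AMP binds. PRKAR1A (ENSSSCG00000017259, chr12:11662344-11681490) encodes the type I subunit and varied least of the set among Landrace boars, with a coefficient of variation of 8.6% beside a median of 23.9% over all genes. Its values ran from 339 CPM in L3 to 477 CPM in L8. In contrast (i) the high boars had 433, 459, 462 and 477 CPM and the low boars 432, 440, 339 and 408 CPM, which overlapped only through L2 and L5. This gave a log2 fold change of 0.19 (SE 0.13, interval -0.08 to 0.47, adjusted p 0.247). In contrast (iii) it was 0.08 and in contrast (ii) -0.05, both with adjusted p above 0.6. Duroc boars had 411 to 537 CPM.

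PRKAR2A (ENSSSCG00000011363, chr13:31427786-31517005) encodes the type II subunit, the form that most anchoring proteins bind. In contrast (i) the high boars had 246, 221, 205 and 264 CPM and the low boars 179, 207, 157 and 216 CPM. The upper low boars, L2 and L4, overlapped with L7. Its log2 fold change was 0.32 (SE 0.14, interval 0.01 to 0.62, adjusted p 0.113). In contrast (iii) the groups were interleaved, at 205, 152 and 197 CPM beside 207, 240, 181 and 161 CPM. Its level in D2, 280 CPM, was the highest of all 21 boars. The breeds had nearly the same mean, 201.4 ± 38.9 CPM (SD, n = 8) in Duroc and 201.9 ± 35.5 CPM (SD, n = 13) in Landrace, with an interval of -0.24 to 0.23 for the log2 fold change.

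AKAP4 and AKAP3 are the main structural and anchoring proteins of the sheath. AKAP4 (ENSSSCG00000012306) lies on the X chromosome at chrX:43885584-43895142 and is made as a precursor that is cleaved when the sheath is assembled. The high boars of contrast (i) had 3002.5, 2380.5, 2238 and 3275 CPM and the low boars 2310.5, 2300, 1706 and 2590 CPM. L5 and L8 were above every low boar, while L6 and L7 fell within the low range. High over low, this was a log2 fold change of 0.31 (SE 0.18, interval -0.08 to 0.69, adjusted p 0.199). In contrast (iii) the high boars had 2238, 1337 and 1979 CPM and the low boars 2300, 2464, 2539 and 1926 CPM. The fitted change was then -0.32 (SE 0.19, interval -0.74 to 0.11, adjusted p 0.345), opposite in sign to contrast (i), and L13 held the lowest AKAP4 level of all boars. Labelled High and Low Duroc boars had means of 2411 ± 328 (SD, n = 5) and 2419 ± 512 CPM (SD, n = 3), a log2 fold change of -0.0050 with an interval of -0.43 to 0.42.

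AKAP3 (ENSSSCG00000000720, chr5:65788744-65816031) is built into the sheath earlier than AKAP4. Its high and low boars of contrast (i) were interleaved, at 1091, 795, 951 and 932 CPM beside 874, 1082, 1049 and 978 CPM, with a log2 fold change of -0.06 (interval -0.37 to 0.25). L13 had 580 CPM, and the other 12 Landrace boars had 795 to 1103 CPM. In contrast (iii) the fitted change was -0.17 with L13 and 0.07 without it. Duroc boars spread more widely, from 657 CPM in D7 to 1433 CPM in D4, a coefficient of variation of 22.7% beside 15.8% in Landrace. The largest breed difference of the 8 genes was in AKAP3, 1073 ± 243 CPM (SD, n = 8) in Duroc and 945.4 ± 149 CPM (SD, n = 13) in Landrace, with a log2 fold change of 0.18 (interval -0.07 to 0.44, adjusted p 0.715).

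ROPN1L, CABYR and SPA17 carry a docking fold like that of the type II regulatory subunit, through which they bind anchoring proteins in the tail. ROPN1L (ENSSSCG00000022306, chr16:43299-58569) had 162, 104, 119 and 141 CPM in the high boars of contrast (i) and 163, 157, 221 and 162 CPM in the low boars. Apart from L5, each high boar was below each low boar. The log2 fold change was -0.40 (SE 0.17, interval -0.76 to -0.03, adjusted p 0.0956). Without L5 it was -0.51 with an adjusted p of 0.0412, where 3764 of 12934 genes were called. This was the only 1 of 8 fits leaving out a single boar that passed. Without L6 the change was -0.29, and without L3, the highest low boar, -0.32 with an adjusted p of 0.21. Duroc boars labelled High had a mean of 149.4 ± 23.8 CPM (SD, n = 5) and those labelled Low 130.2 ± 15.9 CPM (SD, n = 3). The difference between the Duroc and the Landrace effect was 0.57 on the log2 scale (SE 0.24, adjusted p 0.329), and no gene of 12920 passed this interaction test, in which 1946 had an unadjusted p under 0.05. This difference rests on the direction of the Duroc labels, which the study's listing turns for all but D5.

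SPA17 (ENSSSCG00000015197, chr9:51918916-51931459), the sperm autoantigen 17 gene, had the largest fitted change of the set in contrast (i). Its high boars had 1243, 1050.5, 902 and 1559 CPM and its low boars 998, 831, 757 and 922 CPM. L5, L6 and L8 were above all low boars and L7 was not. Its log2 fold change was 0.45 (SE 0.17, interval 0.08 to 0.83, adjusted p 0.0737). The adjusted p was 0.0481 with the likelihood ratio test, 0.0417 with DESeq2 and 0.0437 without L7, and over all alternatives to the test and the samples its log2 fold change ran from 0.32 to 0.55. In contrast (iii) the groups overlapped, at 902, 1007 and 982 CPM beside 831, 1008, 876 and 868 CPM, and the change was 0.10 (interval -0.17 to 0.38).

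CABYR (ENSSSCG00000003711, chr6:108971340-108997295) encodes a calcium-binding sheath protein that is phosphorylated on tyrosine during capacitation. In contrast (i) L5 and L8 had 1022 and 1054 CPM, above all low boars, while L6 and L7, with 713 and 824 CPM, lay within the low range of 704 to 831 CPM. This gave a log2 fold change of 0.26 (SE 0.15, interval -0.07 to 0.59, adjusted p 0.199). In contrast (iii) it was -0.05, and among Duroc boars 0.11.

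**Figure D2:**
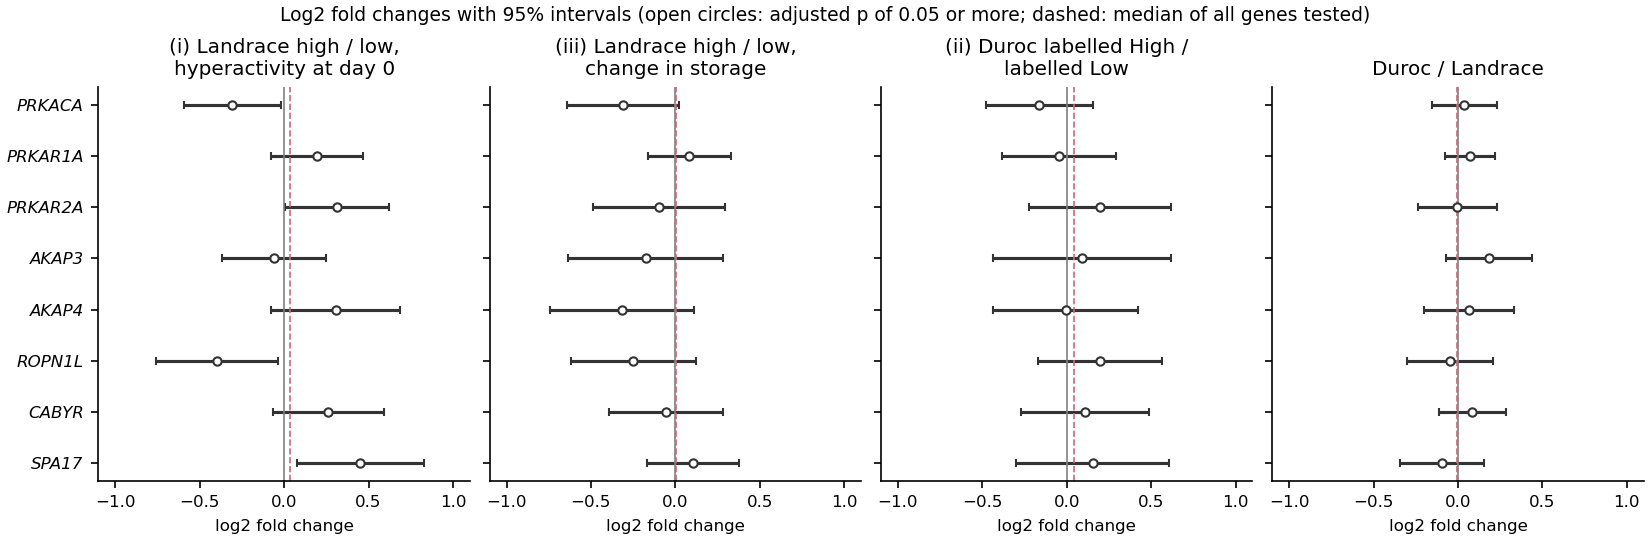
Log2 fold changes of the 8 genes (circles) with 95% intervals (bars) in the 4 comparisons, on 1 horizontal scale. All circles are open, since none passed the adjusted threshold. Intervals are narrowest between breeds, where every gene lies between -0.09 and 0.18, and in contrast (i) 4 of the 8 leave out 0.

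The 8 genes did not move as a block in contrast (i). Their median log2 fold change was 0.23, beside 0.03 over all genes tested, with 5 above and 3 below 0. The catalytic PRKACA and the docking protein ROPN1L were on the low side, and PRKAR2A and SPA17 on the high side, each with an interval that left out 0. In contrast (iii) the median was -0.14, beside 0.0034 over all genes, with 2 above and 6 below 0. Without L13, the fitted changes of AKAP3, CABYR and PRKAR2A in contrast (iii) were 0.07, 0.09 and 0.04, above 0 in place of below it. Between breeds the non-overlap of groups held for 0.28% of genes and for 0 of 8, and in contrast (ii) for 1.41% of genes and 0 of 8. Over the 8 genes, the log2 fold changes ran from -0.16 to 0.20 in contrast (ii), with intervals that reached -0.48 (PRKACA) and 0.62 (PRKAR2A).

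Ratios within a library do not depend on the scaling between libraries. The AKAP4 to AKAP3 count ratio was 2.75, 2.99, 2.35 and 3.52 in the high boars of contrast (i) and 2.64, 2.12, 1.63 and 2.65 in the low boars. Means were 2.90 ± 0.49 (SD, n = 4) and 2.26 ± 0.49 (SD, n = 4), with an exact permutation p of 0.114 and 0.457 after Benjamini-Hochberg adjustment over the 8 ratio comparisons (2 ratios in 4 comparisons). The PRKAR1A to PRKAR2A ratio differed most among Duroc boars, at 2.13 ± 0.15 (SD, n = 5) in those labelled High and 2.54 ± 0.32 (SD, n = 3) in those labelled Low (exact permutation p 0.0536, adjusted 0.429). None of the 8 ratio comparisons passed.

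The levels of AKAP4 and PRKAR2A were correlated across the Landrace boars, and r was of similar size in Duroc, where it missed the adjusted threshold. In Landrace (n = 13) Pearson's r was 0.86 on log2 CPM (permutation p 7e-05, adjusted 0.00392 over 56 relations, which are 28 pairs of genes in each breed), with a Spearman rho of 0.84 (permutation p 0.00045, adjusted 0.0252). Without L13 and L3, the boars farthest from the median, r was 0.78. In Duroc (n = 8) r was 0.87 (exact permutation p 0.00372, adjusted 0.0542) with a rho of 0.88 (exact permutation p 0.00724, adjusted 0.115), and 0.93 without the 2 farthest boars. This was the 1 relation of the 56 that passed. AKAP4 and AKAP3 had an r of 0.50 in Landrace (permutation p 0.089), which was -0.09 without L13 and L6, and so rested on those boars. AKAP4 and ROPN1L had r of 0.0011 in Landrace and 0.107 in Duroc (permutation p 0.997 and exact p 0.805). Negative correlations of PRKACA in Landrace missed the adjusted threshold, both with SPA17 (r -0.63, rho -0.68, permutation p 0.0215 and 0.0123, adjusted 0.109 and 0.115, r -0.85 without the 2 farthest boars) and with PRKAR1A (r -0.65, rho -0.58, permutation p 0.0147 and 0.0408, adjusted 0.0823 and 0.254, r -0.53).

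**Figure D3:**
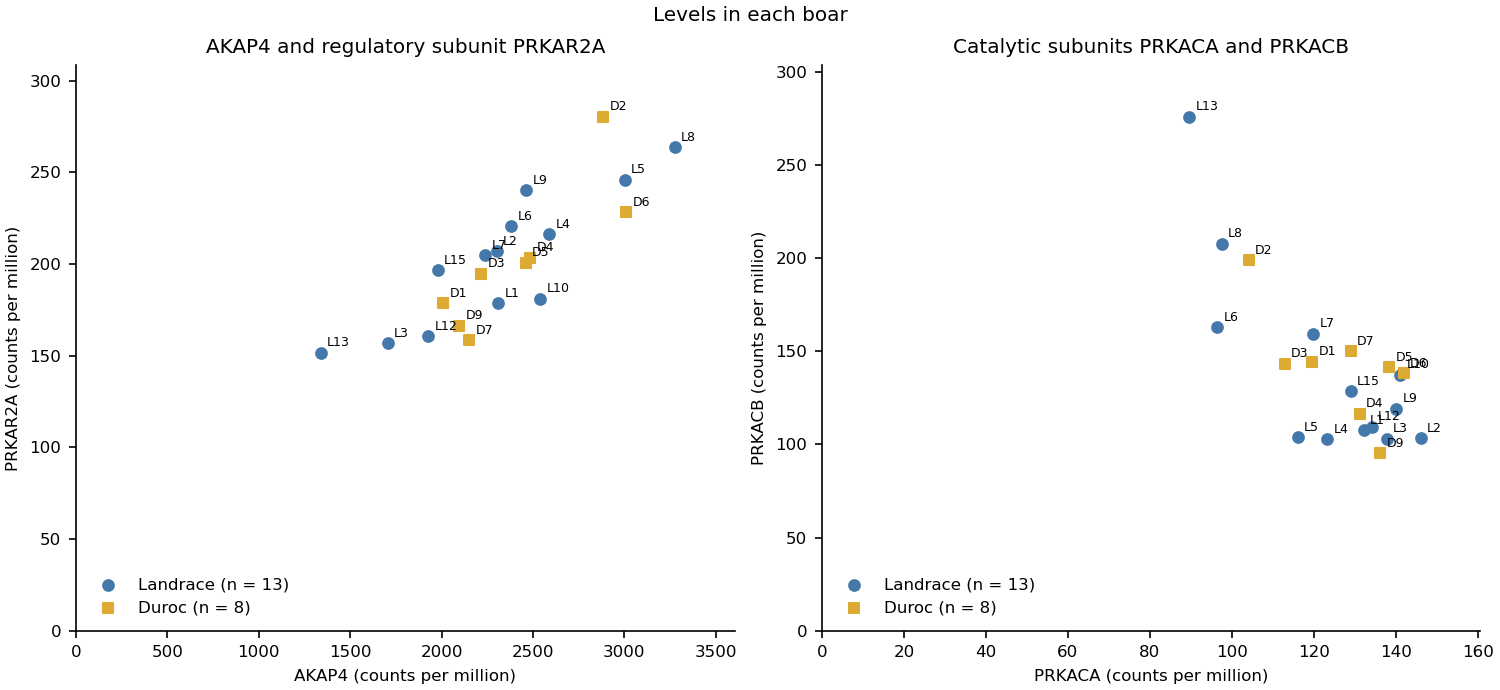
Levels in CPM of AKAP4 and PRKAR2A (left) and of the catalytic subunits PRKACA and PRKACB (right), with 1 point per boar, circles for Landrace and squares for Duroc, both axes from 0. AKAP4 and PRKAR2A rise together from L13 to L8, and L13, with the least PRKACA at 89.7 CPM, has the most PRKACB at 276 CPM.

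Other genes whose pattern was most like that of AKAP4 were named by the smaller of the within-breed Pearson correlations over 12834 genes, as a description. They were EHBP1 (0.97 in Landrace and 0.94 in Duroc), SH3GL3 (0.91 and 0.92), PPEF1 (0.91 and 0.96), ZNF239 (0.94 and 0.91) and TRIM36 (0.90 and 0.90). PRKAR2A ranked 22 by the same measure, SPA17 873, CABYR 864 and AKAP3 1228. For PRKAR1A the nearest included HSPA5 (0.90 and 0.91), PDIA3 (0.88 and 0.85), IFT74 (0.85 and 0.86) and the unnamed ENSSSCG00000029522 (0.86 and 0.86). HSPA5 and PDIA3 encode a chaperone and a disulfide isomerase of the endoplasmic reticulum, and IFT74 a subunit of the intraflagellar transport machinery.

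Among all genes tested in contrast (i), 4.82% were called higher and 15.8% lower, and the lists below are to be read beside these shares. Of 8 other genes of the PKA pathway, 1 was higher, 0 lower and 7 did not pass. The higher gene was PRKACB, which encodes the other widely expressed catalytic subunit. Its high boars had 104, 163, 160 and 208 CPM (L5 to L8) and its low boars 108, 103, 103 and 103 CPM (L1 to L4). L6, L7 and L8 were above all low boars and L5 was not. The log2 fold change was 0.62 (SE 0.17, adjusted p 0.0311). Across alternatives it ran from 0.48 to 0.79, but the call was lost when any 1 of L1, L2, L3, L4, L6 or L8 was left out, with adjusted p up to 0.1. PRKACA and PRKACB thus had fitted changes of opposite sign in contrast (i), and also in contrast (iii), where PRKACB had 160, 276 and 129 CPM in the high boars, 103, 119, 138 and 110 CPM in the low boars and a change of 0.67 (SE 0.23, adjusted p 0.24). ADCY10, the soluble adenylyl cyclase that makes cyclic AMP in sperm in answer to bicarbonate, had 309 ± 74.2 and 239.2 ± 14.7 CPM (SD, n = 4 each) in contrast (i), with a change of 0.38 and an adjusted p of 0.0861. The inhibitor genes PKIA, PKIB and PKIG did not pass, with changes of 0.41, 0.36 and -0.07.

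Among 14 other anchoring protein genes, 0 were higher and 2 were lower in contrast (i), AKAP1 and AKAP17A, a share close to the 15.8% of all genes. AKAP1 tethers PKA to the outer membrane of mitochondria. It had 143, 79.95, 132 and 70.1 CPM in the high boars and 212, 206, 264 and 244 CPM in the low boars, with no overlap, and a log2 fold change of -1.095 (SE 0.23, adjusted p 0.0208). AKAP17A, a nuclear protein linked to splicing, was scarce, at 27 to 55 counts per library in the high boars and 89 to 230 counts in the low boars, or 0.561 ± 0.252 and 2.07 ± 0.72 CPM (SD, n = 4 each), with a change of -1.86 (SE 0.40, adjusted p 0.0208). The filter asked for 1 CPM in 4 libraries, which only the 4 low boars reached, so testing AKAP17A depended on the low group. With any 1 low boar left out AKAP17A was too scarce to be tested. AKAP5 had the highest fitted value that did not pass, 1.08 (SE 0.40, adjusted p 0.0704), at 1.68 and 0.794 CPM. AKAP11 and AKAP12 had changes of 0.11 and -0.02.

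Of 4 other sheath genes tested, 0 were higher and 1 was lower in contrast (i). This was GAPDHS, the sperm form of glyceraldehyde-3-phosphate dehydrogenase, which is bound to the sheath. The high boars had 156, 83.5, 126 and 90.3 CPM and the low boars 198, 213, 206 and 247 CPM, a log2 fold change of -0.90 (SE 0.20, adjusted p 0.0209) with no overlap. The other 3, FSIP1, RHPN2 and ENO4, had changes of 0.33, -0.15 and -0.05. RHPN1 did not pass the filter on low counts, and FSIP2, FSCB and RIIAD1 were not analysed here. The calls for AKAP1 and GAPDHS were lost without L3 (adjusted p 0.0504 for each) and without L6 (0.0532 and 0.0539), and that for AKAP17A without L6 (0.0539). Leaving out either boar left 1 gene of the whole transcriptome called in contrast (i), in place of 2682. With all 21 libraries in 1 fit, 1 gene was called there too, and AKAP1, GAPDHS and PRKACB had adjusted p of 0.0634, 0.0697 and 0.0868.

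**Figure D4:**
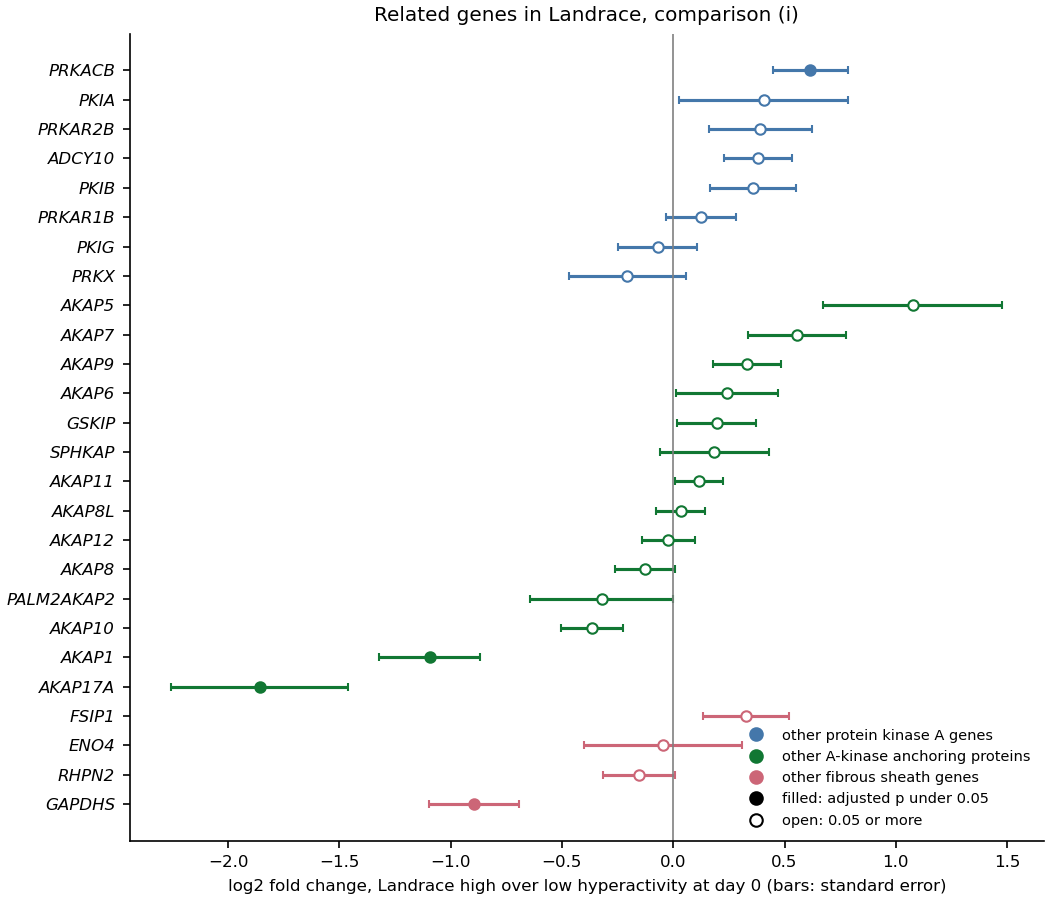
Log2 fold changes, high over low, in contrast (i) for other PKA genes (blue), other anchoring protein genes (green) and other sheath genes (red), with bars of 1 standard error. The 4 filled circles, PRKACB above 0 and AKAP1, AKAP17A and GAPDHS below 0, passed the adjusted threshold. AKAP17A passed the filter on low counts through the low boars alone.

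Genes of other stages and cell types were also called in the same contrast, where 15.8% of all genes were lower and 4.82% higher. In contrast (i), 4 of 8 outer dense fibre and tektin genes, 2 of 4 protamine and transition protein genes and 5 of 11 glycolysis genes were lower in the high boars and none was higher, with medians of -0.45, -0.45 and -0.53. The glycolysis list holds GAPDHS too. The summed level of the outer dense fibre and tektin list was 3301 to 4846 CPM in the high and 4778 to 5226 CPM in the low boars. The spermatocyte list had 1 of 7 higher, DMC1, with a median of 0.48, and the round spermatid list 1 of 5 lower, the acrosin gene ACR at -1.05, with a median of 0.39 and summed levels of 5977 to 10080 CPM in the high and 4810 to 6357 CPM in the low boars. The peritubular list had 1 of 3 lower, MYH11 at -1.17, with sums of 16.1 to 57.6 CPM in the high and 39.6 to 101 CPM in the low boars. The spermatogonia list had 1 of 6 higher, ID4, and the Sertoli, Leydig, endothelial and macrophage lists had 0 genes called of 8, 5, 3 and 3. All these lists were drawn up from general knowledge, but with earlier results of these data known. Their part in the values of the sheath and PKA genes was not tested.

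In contrast (iii) no other PKA, anchoring or sheath gene passed. The highest and lowest fitted values were 0.91 for PKIA and -0.37 for PRKAR1B among PKA genes, 0.68 for PALM2AKAP2 and -0.95 for AKAP1 among 13 anchoring genes, and -0.06 for RHPN2 and -0.81 for GAPDHS among 4 sheath genes. In contrast (ii) none passed either, and the outermost values were 0.70 for SPHKAP and -0.25 for AKAP6.

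Between breeds 2.77% of all genes passed, and of 8 other PKA, 13 anchoring and 4 sheath genes tested 1 did. This was ENO4, an enolase of the sheath whose loss disturbs it in mice. Duroc boars had 26.9 to 49.9 CPM with a median of 39.1 (n = 8), and Landrace boars 36.9 to 107.7 CPM with a median of 91.3 (n = 13). The Landrace boars were uneven, since 3 of them, L3, L5 and L7, lay within the Duroc range and the other 10 had 61.9 CPM or more. The log2 fold change, Duroc over Landrace, was -1.06 (SE 0.19, adjusted p 0.00219), and it stayed between -1.12 and -0.99 with adjusted p up to 0.00704 when any 1 boar was left out. The closest other value was that of PRKX, a PKA-like catalytic gene, at 7.21 ± 2.31 and 11.4 ± 2.9 CPM (SD, n = 8 and 13), with a change of -0.67 and an adjusted p of 0.06. Neither GAPDHS nor AKAP1 passed between breeds, with changes of 0.03 and -0.12 and wide ranges within both. The genome used by the authors was assembled from a Duroc pig, and the effect of this on counts was not tested. Markers of other cell types that differed between the breeds were KIT of the 6 spermatogonia markers tested, at 15.7 ± 2.6 and 41.4 ± 19.3 CPM (SD, n = 8 Duroc and 13 Landrace), with a change of -1.40 (edgeR adjusted p 8e-04), and GATA4 of the 8 Sertoli markers, at 23.4 ± 4.4 and 13.9 ± 4.0 CPM, with a change of 0.74 (adjusted p 0.00764). The other marker lists had 0 called, the summed Sertoli levels of the breeds overlapped (205 to 338 and 191.5 to 519 CPM), and so did the spermatogonia sums (81.5 to 109 and 87.7 to 157 CPM). Their part in the ENO4 difference was not tested. Breed cannot be told apart from any handling that differed between the breeds.

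**Figure D5:**
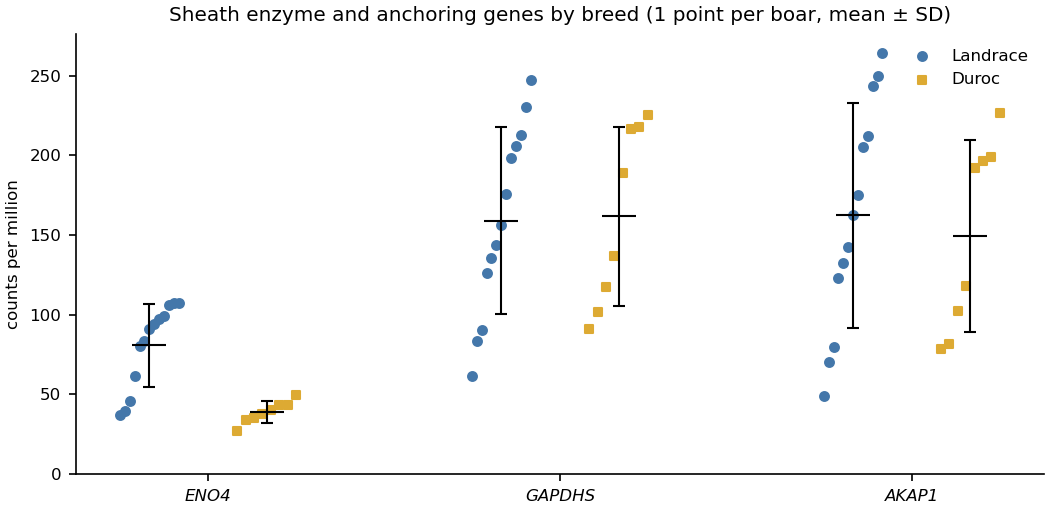
Levels in CPM (vertical axis, from 0) of ENO4, GAPDHS and AKAP1 in Landrace (circles) and Duroc (squares), with 1 point per boar and marks of mean ± SD. For ENO4 the Duroc boars lie at or below 49.9 CPM and 10 of 13 Landrace boars lie above them, while GAPDHS and AKAP1 cover similar ranges in both breeds.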

How the data were processed

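The authors made 1 stranded mRNA library from the testis of each of 13 Landrace and 8 Duroc boars. Per the study's methods, reads were trimmed with Trimmomatic 0.36, aligned to Sscrofa 11.1 with STAR and counted on Ensembl genes with HTSeq, reverse stranded. The deposited values are raw counts per gene and were used as deposited. The 5 HTSeq summary rows were kept out of library sizes. Reads on no feature were 21.5% to 30.3% of all rows.

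Gene symbols came from an identifier table that names 14857 of 25880 identifiers, and coordinates from RefSeq by symbol. A gene was kept if it reached 1 CPM in 4 libraries of a contrast, or in 11 libraries for the comparison of breeds, and counts were scaled by TMM and tested with edgeR 4.0.16 (quasi-likelihood, Benjamini-Hochberg over all genes tested, threshold 0.05) in R 4.3.3. Standard errors came from the log2 fold change and its F statistic. DESeq2 1.42.0 was an alternative. Log2 CPM used a prior of 0.5 CPM. Exact two-sided permutation tests and within-breed correlations (100000 permutations in Landrace, all orders in Duroc) used Python 3.11.15. The fit was tested on simulated data. No 2 libraries of a group were duplicates. Nothing in the labels says more of batches.

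Genes and lists were chosen with earlier results of these data known. Of the other PKA, anchoring and sheath genes, those named passed a comparison or had the outermost fold changes. AKAP11, AKAP12, AKAP5, ADCY10 and the inhibitor genes were named after their values were seen, as was the PRKACA with PRKACB plot. The alternatives were other tests, scalings, filters and sets of boars, and a rank correlation chosen after seeing the data. Of the genes most like PRKAR1A, 1 is not reported here.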

Additional observations from a re-analysis of the deposited data

Results flagged for a closer look

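Each gene and each ratio was checked for a boar far from the rest of its group, in 50 groups of values, and 5 were found, where chance gives about 1 in 20. In D2 the level of PRKAR1A, 537.3 CPM, was above the 411.2 to 435.5 CPM of the other boars labelled High, its PRKAR2A level of 280.3 CPM was above their 178.6 to 203.5 CPM, and its SPA17 level of 1343 CPM was above the 768.2 to 1029 CPM of the other Duroc boars. In L3 the ROPN1L level of 220.8 CPM was above the 156.6 to 163.5 CPM of the other low boars of contrast (i). In L10 the AKAP4 to AKAP3 ratio of 2.932 was above the 2.125 to 2.234 of the other low boars of contrast (iii). The test of a different response to the level of hyperactivity in Landrace and Duroc called 0 of 12920 genes with edgeR (lowest adjusted p 0.329, 1946 genes under an unadjusted 0.05), and the likelihood ratio test called 3, none of them of the set. It rests on the Duroc labels as deposited.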

How the results depend on the processing

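Leaving out each boar in turn gave 1 to 3764 genes called in contrast (i), 0 to 2 in contrasts (ii) and (iii), and 0 to 1 genes of the set in contrast (i). With all 21 libraries in 1 fit, 1 gene was called in contrast (i). The likelihood ratio test and DESeq2 each called 1 gene of the set in contrast (i), and DESeq2 called 1458 of its 3922 genes there as higher, beside 626 of 2682. In contrast (iii) they called 64 and 123 genes, and fits with no filter on low counts or with filterByExpr called 1 each. Between breeds DESeq2 called 537 genes, no filter 554, and the Landrace boars of contrast (i) alone against Duroc 204. AKAP3 in contrast (i) turned to 0.0045 with no filter, and AKAP4 between breeds to -0.026 with those Landrace boars. When single boars were left out, signs turned for AKAP3 in contrast (i) (-0.13 to 0.024), (ii) (-0.15 to 0.33) and (iii) (-0.37 to 0.066), AKAP4 (-0.097 to 0.18) and PRKAR1A (-0.13 to 0.0081) in contrast (ii), CABYR (-0.16 to 0.090) and PRKAR2A (-0.19 to 0.045) in contrast (iii), and PRKAR2A (-0.084 to 0.040) and ROPN1L (-0.12 to 0.014) between breeds. Ratio differences ran from -0.29 to 0.092 for AKAP4 to AKAP3 in contrast (ii), and for PRKAR1A to PRKAR2A from -0.36 to -0.20 in contrast (ii), where the exact permutation p without D6 was 0.0476, and from -0.0083 to 0.30 in contrast (iii). The cause of these changes was not tested. The ROPN1 to ROPN1L ratio was not run, and the rank correlation gave the same count of 1. No paired analysis was possible because the groups compared share no replicate numbers that name the same boar.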
